A study of Rattus norvegicus with 7 samples.

Results

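Myotilin, myopalladin and palladin form a small family of actin-associated proteins with immunoglobulin domains. Myotilin (gene Myot) lies in the Z-disc, the plate that anchors the thin filaments of neighbouring sarcomeres, where it binds alpha-actinin, filamin C and actin. Myopalladin (Mypn) ties nebulin and ankyrin repeat proteins to the Z-disc in striated muscle, and palladin (Palld) organises actin bundles and adhesions in many cell types. In people, mutations of the myotilin gene cause a myofibrillar myopathy. The genes described here are those listed under the symbols LOC100912348, Myot, Mypn or Palld, and any gene described as myotilin, in the authors' deposited table of Pink1-/- against WT. Of 4 names looked for, 3 were found as a symbol. With a further gene described as myotilin-like, LOC100909761, 4 of 14702 genes were members. LOC100912348 was chosen by its steep fall in log2 fold change in this same comparison, so its values are a description and no test. The other genes joined it by name.

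The tissue was the thyroarytenoid, the muscle inside the vocal fold. The libraries came from 3 Pink1-/- and 4 WT female Long Evans rats aged 8 months. Pink1-/- rats lack Pink1, a kinase that marks damaged mitochondria for removal, and WT rats carry the intact gene. The table holds no values per rat. Depth is therefore unknown, and no spread between animals can be shown for any gene.

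The family lay on both sides of 0. LOC100912348, described only as myotilin-like, was among the steepest falls of the whole table in Pink1-/- muscle, while Myot, LOC100909761 and Mypn each had a fold change above 0 that missed an adjusted p of 0.05. Of the 4 members 1 was called lower and none higher in the authors' deposited table, at an adjusted p under 0.05. Over all 14702 genes 1.68% were called lower and 1.37% higher. Since LOC100912348 was chosen for its fall, nothing is read from that count.

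LOC100912348 (ENSRNOG00000048794) had a log2 fold change of -10.85 in Pink1-/- against WT muscle, at a mean of 2.70 log2 CPM, and the authors' deposited table gives it an adjusted p of 2.78e-12. CPM are read counts scaled to a common library total. The level in each genotype is implied by this mean and fold change, if the libraries were of like size. For LOC100912348 the implied level was 0.00616 CPM in Pink1-/- muscle, against 11.4 CPM in WT muscle. Counted from the lowest fold change it had rank 2, after Vip, and it had rank 3 by likelihood ratio, after Pink1 and Myl4, in the authors' deposited table. An approximate standard error (SE), for which the fold change was divided by the root of its likelihood ratio, was 1.34 on the log2 scale. The 95% interval implied by it, -13.48 to -8.23, is poor for a gene near 0 counts in a genotype.

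The size of this fold cannot be read as a ratio of 2 measured levels. Implied Pink1-/- levels fell into bands at the low end. The lowest band held 17 genes between 0.00615 and 0.00773 CPM, and the next gene above it, Scg2, stood at 0.0240 CPM. LOC100912348 lay in the lowest band. A fitted fold change at this end depends on the small prior count that edgeR adds, so it is no bound. No gene had an implied WT level under 0.01 CPM, the limit that was drawn between the bands after the values were seen; the lowest WT level was 0.117 CPM. Counts per rat were not analysed here. Whether the Pink1-/- libraries held any read of LOC100912348, and whether all 4 WT rats carried it equally, cannot be told from the table.

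**Figure D1:**
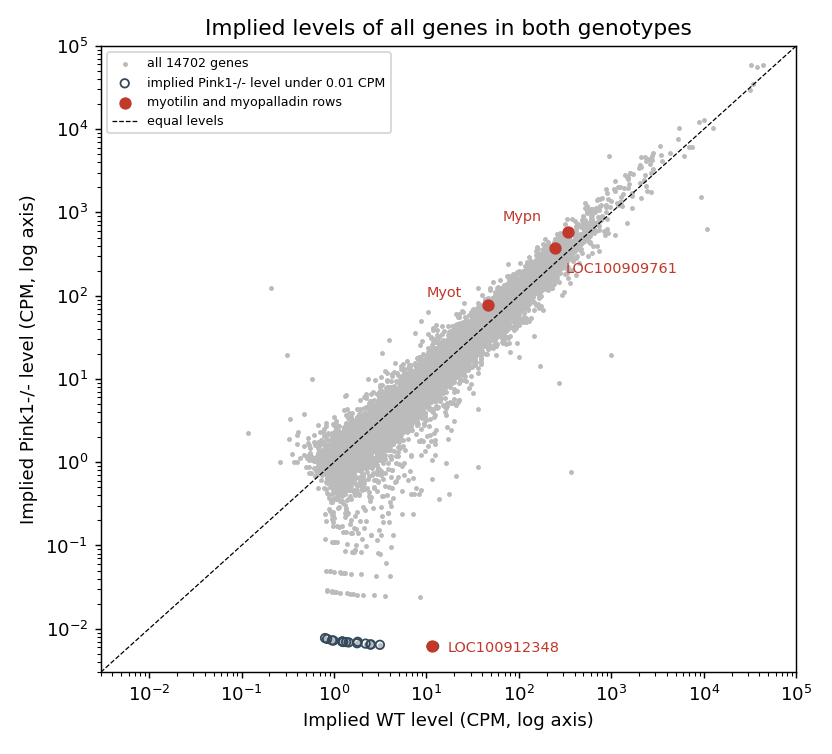
Implied level of each of the 14702 genes in Pink1-/- muscle (vertical, CPM, log axis) against WT muscle (horizontal, CPM, log axis), with the dashed line at equal levels. LOC100912348 sits at 0.00616 CPM in Pink1-/- and 11.4 CPM in WT muscle, in the lowest band of open circles and almost on top of Vip, while Myot, LOC100909761 and Mypn lie just above the line.

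Within the lowest band LOC100912348 and Vip stood apart by their reads in WT muscle, taken per library and not per gene length. The implied WT level was 11.4 CPM for LOC100912348 and 12.1 CPM for Vip, a neuropeptide of parasympathetic neurons, whereas the band's median was 1.44 CPM. The 5 called genes nearest to LOC100912348 in both fold change and mean log2 CPM were Vip, Nrxn3, Nrsn1, Chrna3 and Scg2. Likeness was the larger of the 2 absolute differences, and it was 0.09 for Vip but between 1.92 and 2.39 for the others. These are genes of neurons: Nrxn3 is a synaptic adhesion protein, Chrna3 a nicotinic receptor subunit of autonomic ganglia, and Scg2 a protein of secretory granules. Their log2 fold changes ran from -10.94 for Vip to -8.46 for Scg2 in the authors' deposited table. Likelihood ratios in the authors' deposited table were 65.5 for LOC100912348 and 56.5 for Vip, and 39.2 or less for the other 4.

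Myot (ENSRNOG00000047186), the gene of myotilin itself, stood at a log2 fold change of 0.76 and an adjusted p of 0.0716, per the authors' deposited table. Its implied level was 78.2 CPM in Pink1-/- muscle and 46.0 CPM in WT muscle. The implied SE was 0.26, and the implied 95% interval ran from 0.26 to 1.27 on the log2 scale. Of the 1929 genes within 0.5 log2 CPM of its mean, 96.8% had a lower fold change. The unadjusted p of 0.00279 lay below 0.05 in the authors' deposited table, so the missed call came with the adjustment over all genes.

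LOC100909761 (ENSRNOG00000050004) carries the same myotilin-like description as LOC100912348 but lay on the other side of 0. The authors' deposited table lists it at a log2 fold change of 0.63, adjusted p 0.194. The implied level was 378 CPM in Pink1-/- muscle and 245 CPM in WT muscle, with an implied SE of 0.27 and a 95% interval from 0.10 to 1.16. Of the 318 genes of like abundance, 77.0% had a lower fold change.

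Reads of these 3 genes can be read together, since near-identical copies may divide the same reads between them. How the authors counted reads that match several copies is not given in the labels or headers, and the value of each single copy is therefore uncertain. Summed over Myot, LOC100909761 and LOC100912348, the implied level was 456 CPM in Pink1-/- muscle and 302 CPM in WT muscle, a log2 ratio of 0.59. As shares of these reads, not corrected for gene length, LOC100909761 took 82.9% in Pink1-/- and 81.0% in WT muscle. Myot took 17.1% in Pink1-/- and 15.2% in WT muscle. LOC100912348 took 0.00135% in Pink1-/- and 3.77% in WT muscle.

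The reads of the fallen copy were few beside those of the other copies. The implied level of LOC100912348 was 11.4 CPM lower in Pink1-/- than in WT muscle. Over the same comparison Myot was 32.2 CPM higher and LOC100909761 133 CPM higher. The difference in LOC100912348 thus equals 35.4% of the difference in Myot, and 6.88% of that in Myot and LOC100909761 together. These percentages hold for the deposited scale only. Scaling to equal summed CPM lowered the log2 fold change of Myot to 0.55 and of LOC100909761 to 0.42, which would make both percentages larger. Adding LOC100912348 to Myot alone gave 78.2 CPM in Pink1-/- and 57.4 CPM in WT muscle, a log2 ratio of 0.45 against 0.76 for Myot by itself. Without LOC100912348 the log2 ratio of the other 2 was 0.65. Whether the fall reflects genotype, a copy that differs between the rats' genomes, or the assignment of reads cannot be told apart with values for 2 genotypes and no reads.

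**Figure D2:**
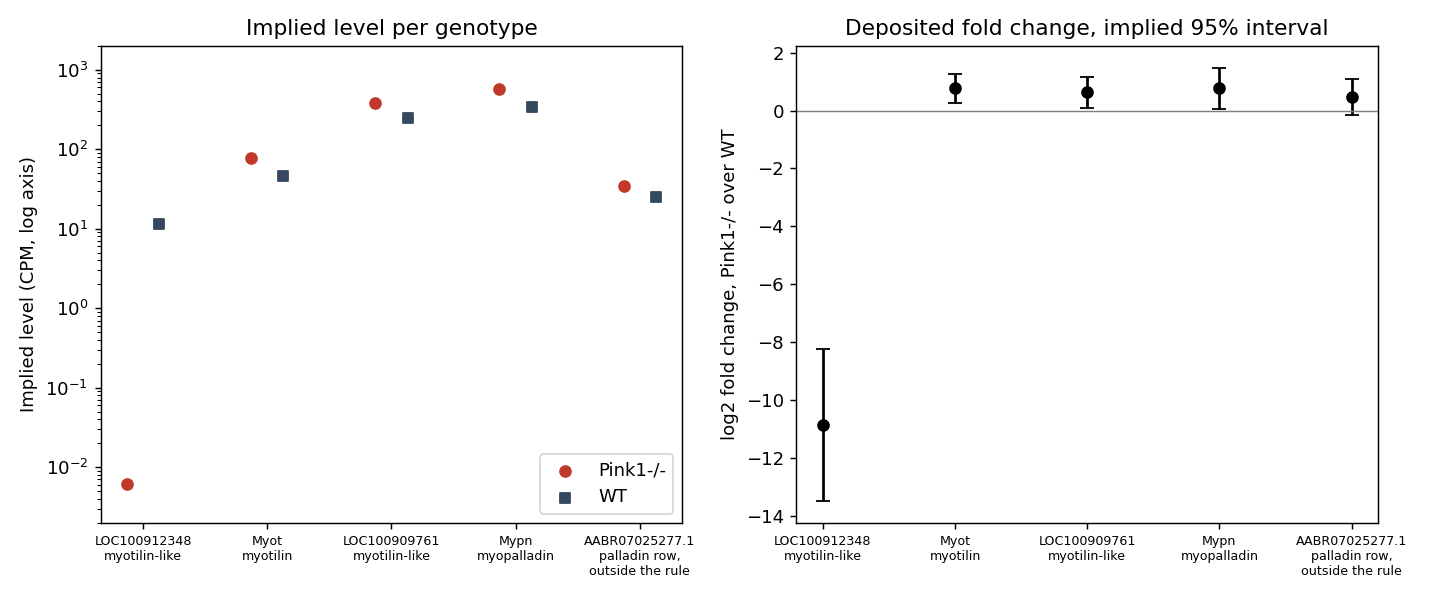
Left, the implied level (CPM, log axis) in Pink1-/- (circles) and WT muscle (squares) for each gene; right, the deposited log2 fold change of Pink1-/- over WT with its implied 95% interval. LOC100912348 lies at -10.85 while Myot (0.76), LOC100909761 (0.63), Mypn (0.77) and the gene described as palladin (0.46) lie above 0.

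Mypn (ENSRNOG00000000383), the gene of myopalladin, is listed in the authors' deposited table at a log2 fold change of 0.77, adjusted p 0.243. Its implied level was 577 CPM in Pink1-/- muscle and 338 CPM in WT muscle. The implied SE was 0.36, with a 95% interval from 0.06 to 1.48. Among the 178 genes of like abundance 87.6% had a lower fold change.

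Palld was not matched by symbol. A gene with the placeholder symbol AABR07025277.1 (ENSRNOG00000042312) is described as palladin, lies outside the rule and is given for comparison. The authors' deposited table gives it a log2 fold change of 0.46, adjusted p 0.478. The implied level was 34.3 CPM in Pink1-/- and 24.9 CPM in WT muscle, and the 95% interval of -0.16 to 1.08 included 0.

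Other genes described as the like of a named gene were set beside the myotilin pair. A gene described as X-like could be paired with the gene described as X in 130 cases. The median absolute difference in log2 fold change between the 2 genes of a pair was 0.29, and 90% of pairs differed by 1.06 or less. Many of the 130 were genes with names of their own. In the 45 pairs whose X-like gene had a LOC symbol, the median was 0.36, and 90% differed by 1.38 or less. LOC100912348 and Myot differed by -11.62, the largest difference of the 130, whereas LOC100909761 and Myot differed by -0.14. The pair next in size was LOC100911734, described as exocyst complex component 7-like, and Exoc7, a vesicle tethering protein. In the authors' deposited table their log2 fold changes were -8.37 and 0.30. LOC100911734 also lay in the lowest band, with an implied 0.00662 CPM in Pink1-/- and 2.20 CPM in WT muscle. The pairs LOC100362027 and Rpl30, Tmem59l and Tmem59, and Pex5l and Pex5 followed, with differences of 3.25, -3.08 and -2.66. Pairing needed the same wording in both descriptions, so copies described otherwise were missed. LOC100911625, described as gamma-enolase-like (-8.02), was thus not paired with Eno2, described as enolase 2 (-1.03), in the authors' deposited table. Both were named after their values were seen. Tmem59l and Pex5l are paralogs with names of their own, not placeholder copies.

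**Figure D3:**
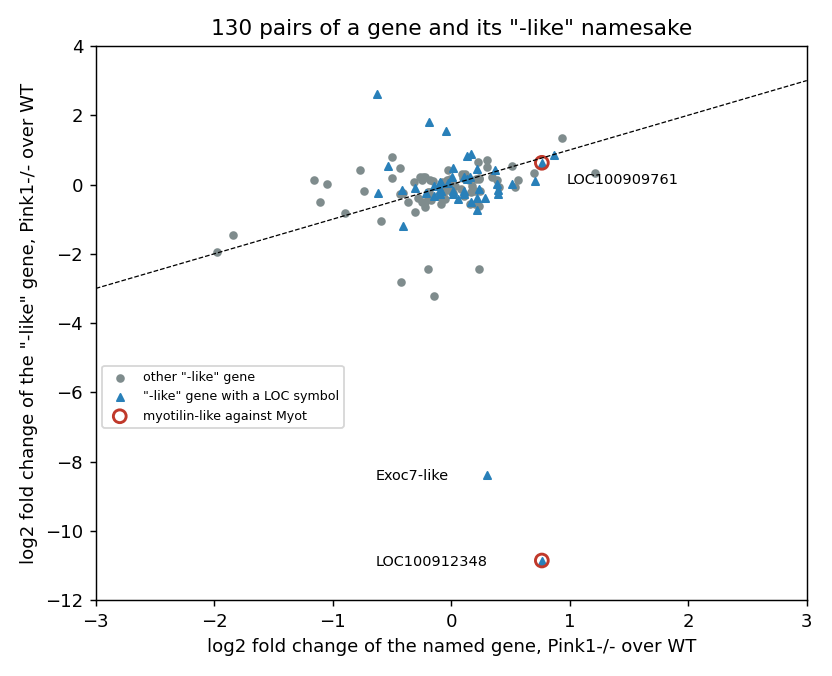
Log2 fold change (Pink1-/- over WT) of each gene described as X-like against that of the gene described as X, for 130 pairs, with the dashed line at equal values. Most pairs lie within 1.06 of the line, LOC100909761 lies near it at Myot's value of 0.76, and LOC100912348 and the Exoc7-like gene lie far below.

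Placeholder genes were called about as often as other genes. Of 484 genes with a LOC symbol, 3.10% were called, 5 higher and 10 lower, against 3.05% of all genes. In the lowest band were 3 of the 484 (0.620%), against 17 of all 14702 genes (0.116%). They were LOC100912348, LOC100911734 and LOC100911625, the last described as gamma-enolase-like and named after its value was seen. LOC100912348 was chosen for its fall, and the limit of the band was drawn after the values were seen. Nothing is therefore read from these shares of the band. Of the 484 symbols, 23 were found in RefSeq's gene table for the assembly GRCr8 of the rat. LOC100912348 and LOC100909761 were not found there as a symbol or a synonym, whereas Myot, Mypn and Palld were. Palldl1 was found there too, but AABR07025277.1, the gene described as palladin, was not. Whether that gene is Palld or Palldl1 cannot be told.

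The position of LOC100912348 could not be looked up, so its neighbours are not given. The measured genes next to Myot in the GRCr8 order were Scgb3a2, Jakmip2 and Dpysl3 on one side and Dcp2, Mcc and Ythdc2 on the other. One of the 6 was called in the authors' deposited table, Jakmip2, a protein of neurons, at -4.37 with an adjusted p of 0.00434. The others ran from -0.75 for Dpysl3 to 0.20 for Mcc in the authors' deposited table. Beside Mypn, Herc4 stood at 0.01 and Pbld1 at -1.11, and beside Palld, Spock3 stood at -1.26 and Cbr4 at 0.45, none of them called in the authors' deposited table.

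Most Z-disc genes, many of whose proteins bind myotilin or myopalladin, lay above 0 like Myot and Mypn. Titin (Ttn) and Tcap, also Z-disc genes, were not matched by symbol. Of 24 measured, 20 lay above 0 and none was called. Their median log2 fold change was 0.54, against -0.02 over all genes, of which 48.0% lay above 0. Among genes within 0.5 log2 CPM the median was 0.03 for Myot, 0.20 for LOC100909761 and 0.23 for Mypn. The value over all genes is thus a low baseline for abundant genes. Those with the smallest p in the authors' deposited table were Trim54 (0.93, adjusted p 0.0654), a ubiquitin ligase of the sarcomere, and Myoz3 (0.63, adjusted p 0.0915), which binds myotilin and alpha-actinin. The authors' deposited table puts Des, which forms the desmin filaments, at 1.01 (adjusted p 0.139) and Trim63, an atrophy ubiquitin ligase, at 0.76 (0.147). The fold changes of Myot (0.76) and Mypn (0.77) lay within the range of this list, from -1.05 to 1.35. LOC100912348, at -10.85, lay outside it.

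Genes of other intracellular immunoglobulin-domain proteins of muscle mostly lay above 0 too. Of 11 measured, 10 exceeded 0 (median 0.77) and 3 rose: Mylk2, the skeletal myosin light chain kinase, by 1.06 (adjusted p 0.0219), Mybph, a myosin-binding protein, by 0.93 (adjusted p 0.0293), and Speg, a kinase of the triad, by 0.97 (adjusted p 0.0388) in the authors' deposited table. Scaling to equal summed CPM left none of the 3 called. Myopalladin's partners had a median of 0.33 over 7 measured genes, 6 of them above 0, with none called. In the authors' deposited table Ankrd23, a stretch-responsive ankyrin repeat gene, had 0.58 (adjusted p 0.240), Ankrd1 0.52 (0.435), Srf 0.33 (0.421) and Nebl, a nebulin relative, -0.67 (0.249).

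Palladin's partners lay on the other side of 0. All 13 measured genes were below 0, with a median of -0.26 and none called. In the authors' deposited table Src, a tyrosine kinase of adhesions, stood at -0.70 (adjusted p 0.154), Ezr, a membrane-actin linker, at -0.66 (0.229), Eps8 at -0.39 (0.350) and Lasp1 at -0.35 (0.391). Under scaling to equal summed CPM, which lowers every log2 fold change by 0.21, Src alone of the 13 was called, at -0.91 with an adjusted p of 0.0357. The gene described as palladin, which may not be Palld, stood at 0.46.

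**Figure D4:**
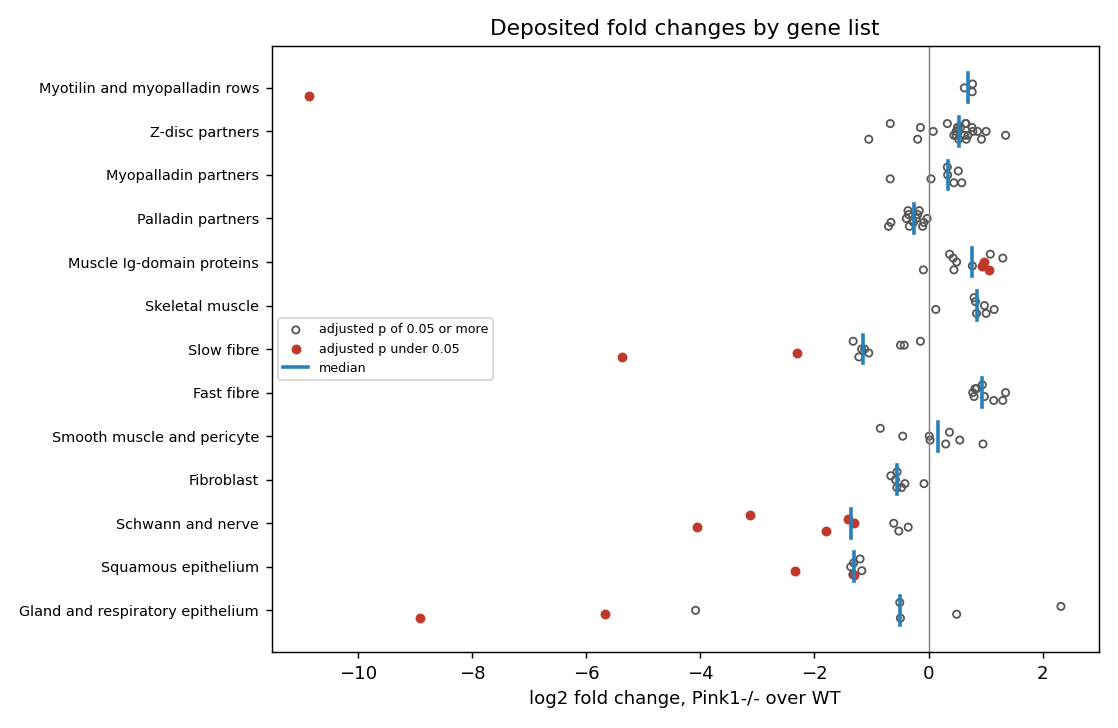
Deposited log2 fold change (Pink1-/- over WT, horizontal) of each measured gene in each list, one list per line, with genes under an adjusted p of 0.05 filled and the median of each list as a bar. Of the members, 3 lie between 0.63 and 0.77 and 1 at -10.85, beside medians of 0.54 for Z-disc genes, 0.84 for skeletal muscle markers and -1.36 for nerve markers.

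The defining markers of skeletal muscle were present, and the 7 measured ones all lay above 0, with a median log2 fold change of 0.84 and none called. Their summed implied level was 78432 CPM in Pink1-/- and 43981 CPM in WT muscle. Most of both sums was Myh4, at 58665 CPM in Pink1-/- and 32764 CPM in WT muscle. The smallest p-values among the 7 markers in the authors' deposited table belonged to Des, Ckm (1.15, adjusted p 0.215), Tnni2 (0.98, 0.229) and Acta1 (0.82, 0.393). Myot, LOC100909761 and Mypn lay below the median of these markers. Of the fibre-type genes, the 9 measured of the fast fibre list all lay above 0 (median 0.94, none called). The 10 measured of the slow fibre list all lay below 0 (median -1.15). Of these, Myh7 fell by 5.38 and Myl3 by 2.30 in the authors' deposited table. Mybpc1, described as myosin binding protein C, slow type, was kept in the immunoglobulin-domain list and stood at 0.37 in the authors' deposited table. Myh1, Myh2 and Atp2a1 of the fast list, and Myl2 and Ankrd2 of the slow list, were not matched by symbol. In bulk tissue more muscle in a sample and more RNA of a gene per fibre cannot be told apart.

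Markers of cells other than muscle fibres are given beside these values. Nerve and Schwann cell genes summed to 268 CPM in Pink1-/- and 493 CPM in WT muscle, and 8 of 8 were below 0, of which 5 fell. Squamous epithelium genes summed to 358 CPM in Pink1-/- and 873 CPM in WT muscle, with 7 of 7 below 0 and 2 called lower. For gland and respiratory genes the sums were 5679 CPM in Pink1-/- and 13349 CPM in WT muscle, with 5 of 7 below 0 and 2 called lower. The WT sum was mostly Muc5b, a mucin that was not called, and without it the sums turned round to 5046 CPM in Pink1-/- and 2614 CPM in WT muscle. Most of that Pink1-/- sum was in turn Bpifa1, also not called, at 4714 CPM in Pink1-/- and 944 CPM in WT muscle. The turn therefore does not describe the rest of the list. Fibroblast genes, 7 of 7 below 0 with none called, summed to 2330 CPM in Pink1-/- and 3248 CPM in WT muscle. Smooth muscle and pericyte genes, among the cells that use palladin, summed to 1461 CPM in Pink1-/- and 1016 CPM in WT muscle, with 6 of 8 above 0 and none called. Without Synm, which muscle fibres also express, the sums were 667 CPM in Pink1-/- and 607 CPM in WT muscle, and 4 of the 8 were above 0 once both genotypes were scaled to equal summed CPM. After every likelihood ratio was divided by 1.96, the factor by which their median exceeded that of a chi-square, no gene of any list here was called, the 3 immunoglobulin-domain genes and Myh7 and Myl3 included. Scaling to equal summed CPM gave 6 nerve, 4 squamous and 3 slow fibre genes called lower. No measured marker was under 0.01 CPM in either genotype. The part of tissue makeup in the values of the myotilin genes was not tested.

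The knockout itself could be checked only in the mean. Pink1 had a log2 fold change of -4.91 in the authors' deposited table, with an implied 8.94 CPM in Pink1-/- and 269 CPM in WT muscle. The targeted gene thus kept an implied level well above the lowest band in Pink1-/- muscle.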

How the data were processed

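RNA of 3 Pink1-/- and 4 WT thyroarytenoid muscles was sequenced with an Illumina TruSeq RNA kit, per the labels' protocols. RSEM and edgeR 3.9 are named, without a role, in the submitters' processing notes. The aligner, build, strand setting and handling of reads with several matches are not given in the labels or headers. Each gene of the authors' deposited table has, per the file headers, a log2 fold change (Pink1-/- over WT), a mean log2 CPM, a likelihood ratio (a score), a p-value and a second, adjusted one. It was used without counts per rat, so depth and its precision are unknown, and the planned fallback to the authors' values was followed.

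Computed here (Python 3.11.15, pandas 2.3.3, scipy 1.17.1) were implied CPM per genotype, from the mean weighted by the number of rats, and an SE from the likelihood ratio. Genes were called at an adjusted p under 0.05. For the alternatives, likelihood ratios were turned into p-values by a chi-square with 1 degree of freedom and adjusted by Benjamini-Hochberg, which was tested on simulated data. Genes named are the members, Pink1, up to 4 genes with the smallest p-values of each list (for lists of cells other than muscle fibres, counts and sums only), the 5 nearest called genes, the neighbours and the 5 most different pairs. Myh4, Muc5b, Bpifa1 and Synm were named besides, for their part in the sums, after their values were seen. Members and lists were chosen with earlier results of these data known. Alternatives covered scaling, centring, a minimum of 1 log2 CPM, divided likelihood ratios, a threshold of 0.01 and equal weights of the genotypes.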

Additional observations from a re-analysis of the deposited data

How the results depend on the processing

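LOC100912348 was the only member called, and stayed so, under scaling to equal summed CPM, which lowers every log2 fold change by 0.21, centring on the median, a minimum of 1 log2 CPM, likelihood ratios divided by their median excess of 1.96, and an adjusted p under 0.01. Its adjusted p ran from 7.54e-13 to 3.48e-05 over these, and that of Myot from 0.0592 to 0.832, with no change of direction. LOC100912348 was chosen for its fall in this same comparison, so its staying called is no support for it. The summed myotilin log2 ratio ran from 0.38 to 0.61. The windows of 0.25 and 1 log2 CPM, and the values of LOC100909761 and of the gene described as palladin, were added after seeing the data. With a window of 1 log2 CPM, 82.3% of genes lay below LOC100909761 in place of 77.0%; the window then takes in more genes of other abundance. Over all genes, calls split into 201 higher and 247 lower as deposited, 63 and 568 under scaling to equal summed CPM, and 4 and 10 with divided likelihood ratios. Palld had no value by symbol. Leaving out rats and DESeq2 were not run, since both need values per rat. No paired analysis was possible because the deposited table holds no values per rat and the labels number the rats differently in each genotype.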
